A study of Mus musculus with 24 samples.

Results

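Krt8, Krt18, Sqstm1, Hspb1 and Tgm2 are the keratin genes of the hepatocyte and the genes of proteins tied to its keratin-rich inclusions, the Mallory-Denk bodies. They were chosen by gene symbol, and 5 of the 56205 gene rows carried one of these symbols. All 5 passed the filter on low counts, as did 14109 rows in all. The livers came from 24 C57BL/6J mice, 12 on a methionine-choline deficient (MCD) diet and 12 on a control diet, in both groups for 20 weeks and from both sexes, and their poly(A) RNA was sequenced from the whole organ. No transgene is named for these mice, and neither the age at the start of the diet nor the sex of a single mouse is given in the sources used here. The study's methods describe the MCD diet as high in fat, whereas its results refer to CDAHFD, so the name in the labels is kept. The control diet is called chow in the labels and is listed in the methods as the diet matched to MCD.

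Hepatocytes of a healthy liver make only a single pair of keratins. Keratin 8 (Krt8, type II) and keratin 18 (Krt18, type I) pair with each other into filaments, and neither is stable alone. Cholangiocytes, the cells of the bile ducts, carry the same pair and add keratins 7 and 19. In steatohepatitis, hepatocytes can balloon and gather misfolded keratins with ubiquitin and the autophagy receptor p62 (Sqstm1), and in mice an excess of keratin 8 over keratin 18 favors such inclusions. Heat shock protein 25 (Hspb1) is a small chaperone that binds filaments, and transglutaminase 2 (Tgm2) crosslinks proteins, keratin 8 among them. Only mRNA was measured in these data, so neither protein nor inclusions could be counted.

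Krt8 and Krt18 are neighbors on chromosome 15. In GRCm38 (mm10), Krt8 (ENSMUSG00000049382) lies at chr15:101996698-102004482 on the minus strand and Krt18 (ENSMUSG00000023043) at chr15:102028180-102032027 on the plus strand, with 23697 bases between them. Sqstm1 (ENSMUSG00000015837) is at chr11:50199366-50210827 on the minus strand, Hspb1 (ENSMUSG00000004951) at chr5:135887919-135889563 on the plus strand, and Tgm2 (ENSMUSG00000037820) at chr2:158116402-158146436 on the minus strand. The promoter stretches below are shown so that the keratin pair, which was higher on the MCD diet, can be read beside Sqstm1 and Hspb1, which did not pass the threshold. They come from RefSeq (GRCm38.p6), run 5′ to 3′ on the strand of the gene and end at the base before its earliest annotated start. Of the 5 genes, 4 had a window. Capitals mark a heat shock element (GAANNTTC) or an Sp1 site (GGGCGG, or CCGCCC where it is on the other strand). Krt8 is chr15:102004483-102004592 (110 bases), Krt18 chr15:102027966-102028179 (214 bases), Sqstm1 chr11:50210828-50211070 (243 bases) and Hspb1 chr5:135887669-135887918 (250 bases).
Krt8: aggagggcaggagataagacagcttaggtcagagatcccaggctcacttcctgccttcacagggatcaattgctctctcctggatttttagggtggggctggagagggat
Krt18: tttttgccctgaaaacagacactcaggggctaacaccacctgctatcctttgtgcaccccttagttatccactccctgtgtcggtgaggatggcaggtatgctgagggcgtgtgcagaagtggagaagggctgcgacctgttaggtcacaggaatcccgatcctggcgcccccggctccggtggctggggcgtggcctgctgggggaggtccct
Sqstm1: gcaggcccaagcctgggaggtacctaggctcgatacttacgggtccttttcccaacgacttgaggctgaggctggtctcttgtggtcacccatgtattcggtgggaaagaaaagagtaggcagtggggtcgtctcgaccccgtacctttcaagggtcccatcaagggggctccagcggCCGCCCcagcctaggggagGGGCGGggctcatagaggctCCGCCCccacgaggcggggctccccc
Hspb1: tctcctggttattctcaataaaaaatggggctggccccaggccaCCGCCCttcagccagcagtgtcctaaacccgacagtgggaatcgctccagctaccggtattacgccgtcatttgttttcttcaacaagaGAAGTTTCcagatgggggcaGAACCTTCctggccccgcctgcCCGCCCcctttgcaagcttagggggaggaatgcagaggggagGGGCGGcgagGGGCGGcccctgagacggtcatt

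Both strands of the 300-base windows of 27025 promoters were searched for 6 motifs. The heat shock element was in 7.95% of windows, the Sp1 site in 35.9%, the antioxidant response core (TGACNNNGC) in 12.5%, the AP-1 site (TGANTCA) in 7.93%, CCAAT in 37.9% and TATAAA in 14.2%. Hspb1 held 2 heat shock elements, at -117 and -97 from the RefSeq start, and 4 Sp1 sites. Sqstm1 held 3 Sp1 sites, at -72, -53 and -33. TATAAA lay across the RefSeq start itself in Sqstm1 and, on both strands with overlap, in Krt8, past the end of the printed stretches. None of the 6 motifs was found in the Krt18 window, which says only that these letters are not in it.

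Both hepatocyte keratins were higher in MCD livers. Levels are in CPM (counts scaled to the TMM-adjusted size of the library). The threshold asked for an FDR (Benjamini-Hochberg) of at most 0.01 together with an absolute log2 fold change above 0.5. Of the 5 genes, 2 were called higher and 0 lower, where 19.2% of all tested genes were higher, 19.1% lower and 38.3% either. The median log2 fold change of the 5 was 0.36, against -0.10 over all tested genes. In 0 of the 5 did the 2 diets separate completely, which they did in 14.4% of tested genes (9.5% with every MCD library above every control).

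Krt8 ran from 150 CPM through a median of 198 to 441 CPM in control livers, and from 322 through 425 to 510 CPM in MCD livers. The diets overlapped through 3 control libraries, replicates 8 (368 CPM), 11 (361 CPM) and 12 (441 CPM), while the other 9 lay below every MCD library. The mean was 242 ± 96.0 CPM in control and 417 ± 63.9 CPM in MCD (SD, n = 12 each). On the log2 scale the difference was 0.79 (SE 0.16, 95% interval 0.46 to 1.12), which is a 1.73-fold rise (edgeR quasi-likelihood test, FDR 0.000122). These values rest on 2440 to 8069 counts per control library and 6996 to 13812 per MCD library.

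Krt18 followed its partner. It ran from 122 CPM through a median of 160 to 414 CPM in control livers and from 250 through 324 to 422 CPM in MCD livers. Only control replicate 12, at 414 CPM, reached into the MCD range. The mean rose from 186 ± 79.8 to 319 ± 49.3 CPM (SD, n = 12 each), with a log2 fold change of 0.78 (SE 0.16, 95% interval 0.45 to 1.10; edgeR FDR 0.000117). Without control replicate 12 the control mean was 165 ± 36.5 CPM (SD, n = 11), the highest control stood at 229 CPM, all 12 MCD libraries lay above it, and the refitted log2 fold change was 0.98. This separation follows from leaving out the only control in the MCD range. For Krt8, 8 MCD libraries lay above every control other than replicate 12. The coefficient of variation of Krt8 was 39.7% in control and 15.3% in MCD livers, and that of Krt18 was 42.9% and 15.5%. Without control replicate 12 the control values were 34.1% for Krt8 and 22.1% for Krt18.

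Sqstm1 encodes p62, which carries ubiquitinated cargo to autophagosomes and binds Keap1. It ran from 345 CPM through a median of 445 to 514 CPM in control livers and from 454 through 499 to 624 CPM in MCD livers. All 12 MCD libraries lay above the control median and 4 lay above every control, while 4 controls reached into the MCD range. The means were 444 ± 55.1 and 514 ± 57.0 CPM (SD, n = 12 each). Sqstm1 had a log2 fold change of 0.21 (SE 0.08, 95% interval 0.05 to 0.37; edgeR FDR 0.0197), past neither limit.

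Hspb1, the small chaperone, was the lowest and most variable of the 5. It ran from 23.4 CPM through a median of 42.1 to 98.7 CPM in control livers and from 42.0 through 60.3 to 114 CPM in MCD livers. The control libraries at the top were again replicates 8 (73.6 CPM), 11 (82.8 CPM) and 12 (98.7 CPM), and MCD replicate 11 was the highest of all. The means were 48.2 ± 24.01 and 61.8 ± 19.7 CPM (SD, n = 12 each), and the log2 fold change of 0.36 was not past the threshold (SE 0.21, 95% interval -0.08 to 0.80; edgeR FDR 0.147). The upper end of that interval was above the fold change of Krt8. The log2 fold change of Hspb1 moved with single libraries, and was 0.28 without MCD replicate 11 and 0.53 (FDR 0.0189) without control replicate 12.

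Tgm2, the crosslinking enzyme, is also made by endothelial cells and macrophages. It ran from 131 CPM through a median of 209 to 270 CPM in control livers and from 184 through 262 to 280 CPM in MCD livers. The ranges overlapped for most libraries, and 8 controls reached into the MCD range. The means were 203 ± 43.8 and 247 ± 32.4 CPM (SD, n = 12 each), with a log2 fold change of 0.29 (SE 0.11, 95% interval 0.06 to 0.51; edgeR FDR 0.0242). This was past neither limit.

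**Figure D1:**
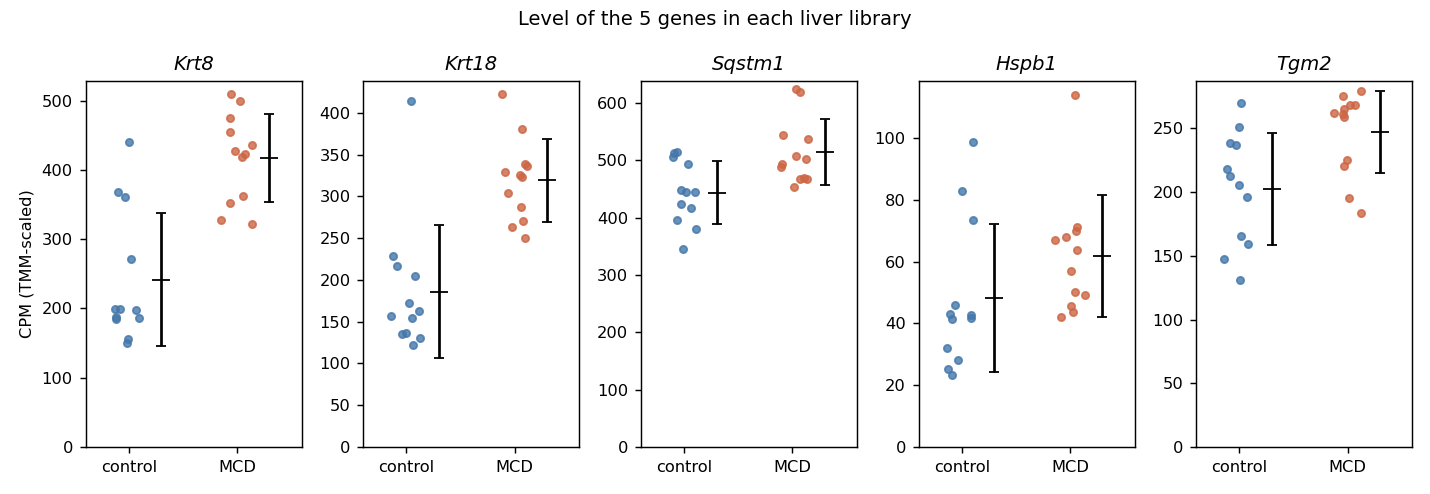
CPM of Krt8, Krt18, Sqstm1, Hspb1 and Tgm2 (vertical axes from 0, a scale for each gene) in 12 control and 12 MCD libraries. Points are libraries and black bars give the mean ± SD; 4 MCD libraries lay above every control for Krt8, and control replicate 12 was the only control in the MCD range for Krt18.

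Per kilobase of the longest annotated transcript, the order of the mean levels in control livers was Sqstm1 (166 ± 20.6 CPM per kb), Krt18 (129 ± 55.5), Krt8 (123 ± 49.0), Tgm2 (56.3 ± 12.2) and Hspb1 (51.9 ± 25.8). In MCD livers it was Krt18 (222 ± 34.3 CPM per kb), Krt8 (213 ± 32.6), Sqstm1 (192 ± 21.3), Tgm2 (68.7 ± 9.02) and Hspb1 (66.4 ± 21.1) (SD, n = 12 each). The mean levels of Krt18 and Krt8, and those of Tgm2 and Hspb1, lay within 1 SD of each other in both diets. The mean level of Sqstm1 was also within 1 SD (that of the keratin) of Krt8 and of Krt18 in both diets.

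The size of each difference depended on library scaling, and its sign did not. TMM factors were 0.642 to 0.973 in control and 1.07 to 1.26 in MCD libraries. With total counts alone, the median log2 fold change of all genes moved up by 0.37, and all 5 genes passed the threshold as higher, where 32.2% of all genes did and 6.01% passed as lower. The log2 fold changes were then 1.17 for Krt8, 1.18 for Krt18, 0.58 for Sqstm1, 0.76 for Hspb1 and 0.63 for Tgm2. Relative to the median of all genes in the same fit, Krt8 was 0.89 higher with TMM and 0.90 with total counts alone, Krt18 0.88 and 0.91, Sqstm1 0.31 and 0.31, Hspb1 0.46 and 0.49, and Tgm2 0.39 and 0.36. Over 9 other scalings, filters and models, Krt8 and Krt18 were past the threshold in all 9, and Sqstm1, Hspb1 and Tgm2 in 1 each, which was total counts alone. The FDR of Sqstm1 ranged from 2.23e-06 to 0.0263 over these alternatives, that of Hspb1 from 0.00290 to 0.128 and that of Tgm2 from 0.000322 to 0.0310.

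**Figure D2:**
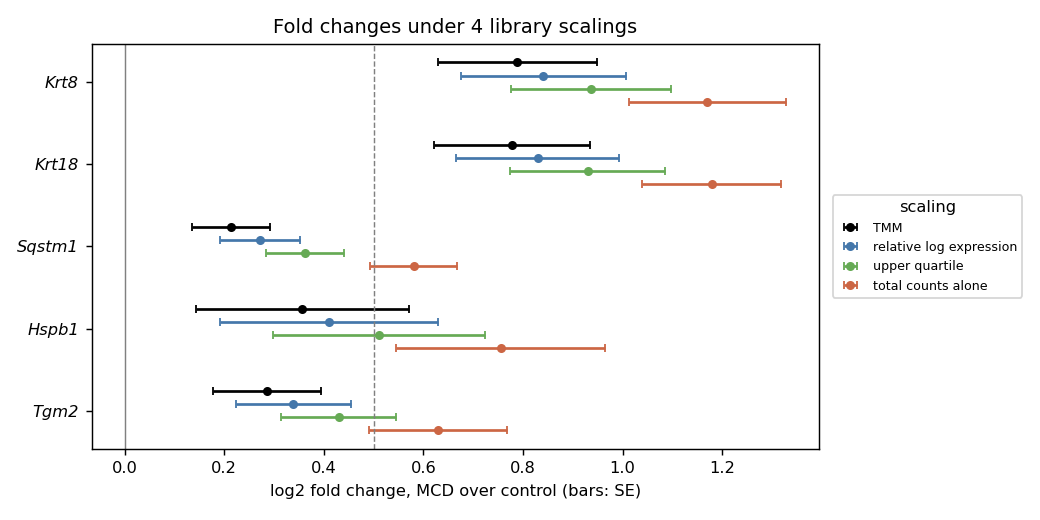
Log2 fold change of each gene, MCD over control, under 4 library scalings (points, with bars of 1 SE to each side); the solid line is 0 and the dashed line the log2 limit of 0.5. Krt8 and Krt18 lay to the right of the limit under all 4 scalings, Hspb1 under 2 of them (upper quartile and total counts alone), and Sqstm1 and Tgm2 with total counts alone.

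Ratios of counts within a library do not depend on its scaling, and the ratio of the keratin pair asks whether one partner came to exceed the other. Krt8 counts divided by Krt18 counts ran from 1.07 through a median of 1.25 to 1.67 in control livers and from 1.19 through 1.31 to 1.41 in MCD livers. The MCD range lay inside the control range, whose ends were control replicate 12 (lowest) and control replicate 11 (highest). The difference of the mean log2 ratios was 0.01, and the 95% interval of -0.11 to 0.13 corresponds to a 0.928- to 1.10-fold change of the ratio (two-sided permutation test with 100000 resamples, p = 0.846; adjusted over 4 ratios, 0.846). A shift of the ratio by more than 1.10-fold in favor of Krt8 is thus outside the interval. Per kilobase of transcript the median ratio was 0.921 in control and 0.963 in MCD livers.

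Against the other 3 genes, Krt8 was higher in MCD livers by the same test. These 3 ratios were added after the values had been seen. Krt8 relative to Sqstm1 went from a median of 0.460 to 0.790, a log2 difference of 0.65 (95% interval 0.40 to 0.90; permutation p = 6e-05, adjusted 0.00024), and 12 of 12 MCD libraries lay above the control median. Relative to Tgm2, the log2 difference was 0.56 (95% interval 0.23 to 0.89; permutation p = 0.00154, adjusted 0.00308; 12 of 12 above the control median). Relative to Hspb1, it was 0.42 (95% interval 0.08 to 0.76; permutation p = 0.0216, adjusted 0.0288; 11 of 12 above the control median). The difference between the rise of Krt8 and that of each of these genes was therefore itself tested, and it passed 0.05 in all 3 after adjustment.

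**Figure D3:**
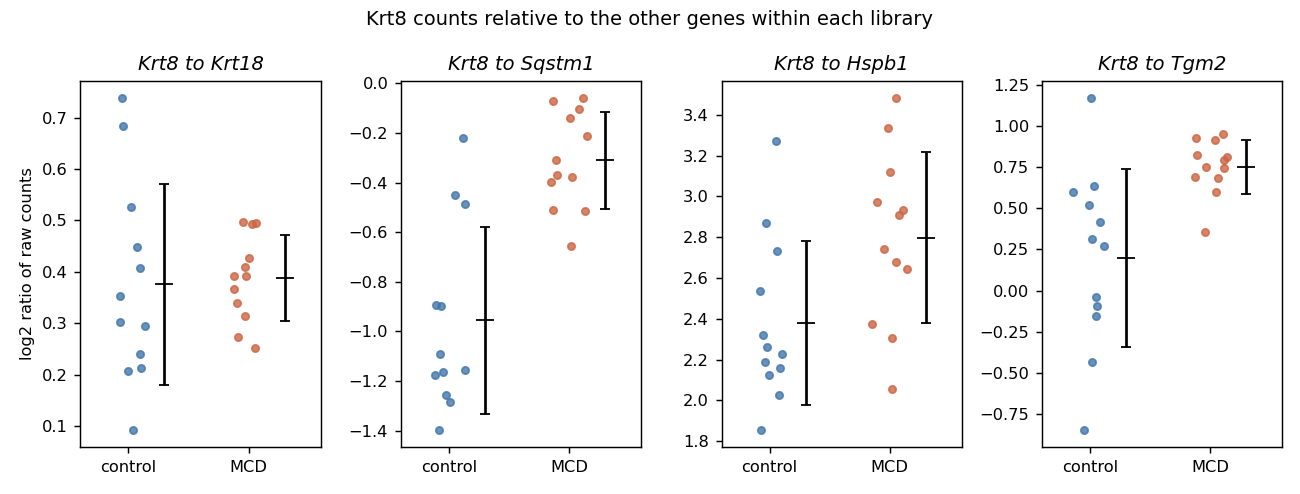
Log2 ratio of raw Krt8 counts to those of Krt18, Sqstm1, Hspb1 and Tgm2 (vertical axes, a scale for each panel, not starting at 0) in 12 control and 12 MCD libraries, with mean ± SD. The diets overlapped for Krt8 to Krt18, where the median ratio was 1.25 and 1.31, and all 12 MCD libraries lay above the control median for Krt8 to Sqstm1 and Krt8 to Tgm2.

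The keratin pair also moved together from liver to liver within a diet. In control livers, Pearson's r of log2 CPM between Krt8 and Krt18 was 0.925 (n = 12; two-sided permutation p = 1e-05, the smallest these resamples give; adjusted over 20 relations, 0.0001) and Spearman's rho was 0.923 (permutation p = 6e-05; adjusted 0.0006). In MCD livers r was 0.931 (n = 12; permutation p = 1e-05; adjusted 0.0001) and rho was 0.937 (permutation p = 1e-05; adjusted 0.0002). When the 2 libraries with the most extreme Krt8 were dropped, r was 0.914 in control and 0.939 in MCD livers. The values of a library share its scaling factor and its mix of cells, and no batch was labelled within which the relations could be recomputed. Both sexes were pooled within a diet, since the sex of a single mouse is not given.

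**Figure D4:**
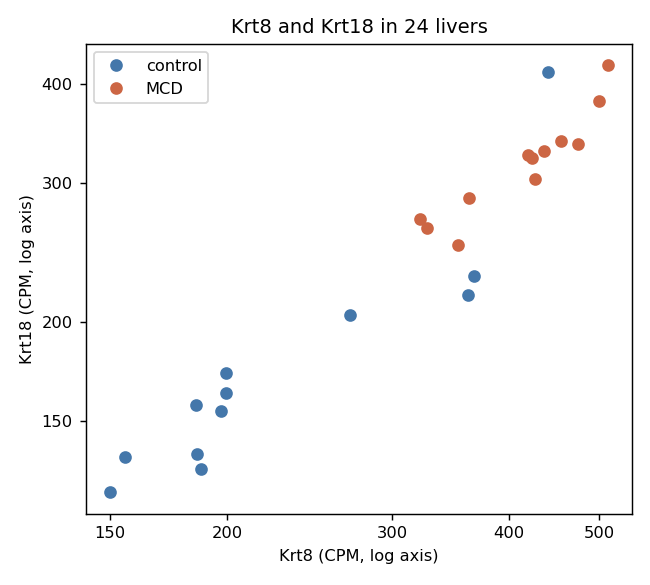
Krt8 against Krt18 (CPM, both axes logarithmic), a point for each of the 12 control and 12 MCD livers. The points follow a single band in both diets (r = 0.925 in control, r = 0.931 in MCD), and control replicate 12 lies among the MCD livers.

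Of the 10 pairs of genes, 6 in control livers and 2 in MCD livers had an adjusted permutation p for r of at most 0.05. In control livers on the TMM scale, Sqstm1 had r of 0.827 to Krt8 (n = 12; adjusted permutation p = 0.00533; rho 0.874, adjusted 0.0024) and 0.754 to Krt18 (n = 12; adjusted permutation p = 0.0135; rho 0.748, adjusted 0.0338). Without the 2 extreme libraries these were 0.748 and 0.754 (adjusted permutation p = 0.047 for both). With total counts alone, r was 0.691 to Krt8 (adjusted permutation p = 0.0446; rho 0.566, adjusted 0.113; r = 0.323 without the 2 libraries) and 0.485 to Krt18 (adjusted permutation p = 0.153). Without the 2 libraries extreme in Krt18, r to Krt18 was 0.863 on that scale (adjusted permutation p = 0.0179). The relation to Krt18 was thus past 0.05 on that scale only when these 2 were dropped. Hspb1 had r of 0.797 to Krt8 (n = 12; adjusted permutation p = 0.0135; rho 0.72, adjusted 0.0388), 0.71 to Krt18 (adjusted permutation p = 0.0246; rho 0.531, adjusted 0.227) and 0.659 to Sqstm1 (adjusted permutation p = 0.0495; rho 0.713, adjusted 0.0388). Without the 2 extreme libraries, r was 0.579 to Krt8, 0.356 to Krt18 and 0.585 to Sqstm1 (adjusted permutation p = 0.198, 0.531 and 0.198), so none of the 3 was then past 0.05.

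In MCD livers r between Krt8 and Sqstm1 was 0.53 (n = 12; adjusted permutation p = 0.138; 0.671 with total counts alone, adjusted 0.0465) and between Krt8 and Hspb1 0.225 (adjusted permutation p = 0.616). Whether these values differ between the diets was not tested. The other relation past 0.05 in MCD livers was Krt8 with Tgm2, with r of 0.715 (n = 12; adjusted permutation p = 0.0251; rho 0.483, adjusted 0.291), and r was 0.287 without the 2 extreme libraries (adjusted permutation p = 0.673). With total counts alone this relation had r of 0.792 (adjusted permutation p = 0.0182) and rho of 0.804 (adjusted 0.0175). Krt18 with Tgm2 moved the other way, from r of 0.552 (adjusted permutation p = 0.131; 0.671 with total counts alone, adjusted 0.0465) to 0.873 without the 2 libraries extreme in Krt18 (adjusted permutation p = 0.005). With total counts alone in place of TMM, 4 relations in control and 5 in MCD livers passed 0.05.

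Across the 24 libraries, with the mean of each diet subtracted, Krt18 was the gene most like Krt8 among 10111 genes of at least 5 CPM (r = 0.926), and Krt8 the gene most like Krt18. These r values are a description over libraries that share a diet mean and a scaling factor. The next genes for Krt8 were Anapc2, a subunit of the anaphase-promoting complex (0.909), and Capn1, a calcium-dependent protease (0.851). For Krt18 they were the membrane proteins Tmem176b (0.900) and Tmem176a (0.879). Sqstm1 was most like Capn1 (0.842), the tubulin gene Tubb4b (0.826) and Jpt1 (0.811). For Hspb1 the closest were BC029722 (0.757), aldehyde oxidase Aox1 (0.751) and Tuft1 (0.746), and for Tgm2 the phosphatase gene Ppm1h (0.826), the mitochondrial carrier gene Ucp2 (0.790) and Srgap2 (0.779). In the ranking for Krt8, Sqstm1 stood at 61, Hspb1 at 119 and Tgm2 at 2282.

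Other keratins were measured next to the hepatocyte pair. The table held 52 other keratin genes, of which 46 were too low to be tested, 27 of them at 0 in every library and none above 13 counts in any. Of the 6 tested, 4 were higher and 0 lower in MCD livers, against 19.2% and 19.1% of all genes. A gene near 0 in control livers could pass the filter only through the MCD libraries, so nothing about keratins as a group is read from this count. A minimum of 10 counts in all libraries left Krt19 and Krt23, of which 1 was higher. Krt7 and Krt19, the bile duct keratins, rose from 0.861 ± 0.647 to 9.57 ± 2.75 CPM and from 1.66 ± 1.44 to 12.98 ± 4.81 CPM (SD, n = 12 each). Their log2 fold changes were 3.48 (SE 0.27, edgeR FDR 3.95e-11) and 2.99 (SE 0.30, edgeR FDR 2.52e-09), and for Krt7 all 12 MCD libraries lay above every control. Krt17 (0 to 1 counts per control library and 12 to 119 per MCD library) and Krt80 (2 to 16 and 18 to 48 counts) were the other 2 called higher. Krt23 (0.69, FDR 0.0483) and Krt10 (-0.08, FDR 0.739) were not past the threshold by the edgeR test. These last 4 genes were named after their values had been seen.

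The fold of the bile duct keratins was larger than that of Krt8 and Krt18, and their share of keratin mRNA was small. Krt8 and Krt18 together made up 98.2% of the summed CPM of all 54 keratin genes, tested or not, in control livers and 95.8% in MCD livers. Per kilobase of transcript the mean level of Krt8 went up by 89.7 CPM per kb and that of Krt18 by 92.5. That of Krt19 went up by 7.18 and that of Krt7 by 2.13. Cholangiocytes carry Krt8 and Krt18 as well, and their part in the rise of this pair was not tested.

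Markers of several cell types differed between the diets. The summed level of 12 cholangiocyte markers, among them Krt7 and Krt19, was 33.6 to 154 CPM in control and 497 to 1015 CPM in MCD libraries, and 12 of the 12 were called higher. Macrophage markers summed to 329 to 776 CPM in control and 1633 to 3155 CPM in MCD libraries (10 of 12 higher, 1 lower), and mesenchymal markers to 267 to 726 and 880 to 1514 CPM (9 higher, 1 lower). Of 11 hepatocyte markers analysed, 5 were lower and 0 higher, and their sum was 84323 to 197912 CPM in control and 66686 to 94363 CPM in MCD libraries, so hepatocyte markers were abundant in every library, as the liver label has it. Of 12 endothelial markers 8 were lower and 0 higher (410 to 651 and 363 to 497 CPM), and of 12 lymphocyte markers 8 were higher and 0 lower (7.02 to 42.9 and 17.7 to 46.5 CPM). No marker was at 0 in all libraries. In whole liver, a change in the number of a cell type and a change in RNA per cell cannot be told apart, and the part of the marker changes in the keratin levels was not tested.

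The control libraries highest in Krt8, replicates 8, 11 and 12, were also among the 4 controls highest in cholangiocyte markers, with replicate 2 (96.9 CPM of markers, 199 CPM of Krt8). The other 8 controls held 33.6 to 77.8 CPM of these markers. Replicate 12 had the lowest TMM factor (0.642), the highest hepatocyte sum (197912 CPM) and 114 CPM of cholangiocyte markers. Replicate 11 had the highest cholangiocyte sum of the controls (154 CPM) and the lowest hepatocyte sum (84323 CPM), and replicate 8 had 91.1 CPM of cholangiocyte markers. Whether these markers bear on the keratin levels of single livers was not tested. Without the 3 controls highest in cholangiocyte markers (replicates 2, 11 and 12), a setting chosen after seeing the data, the log2 fold changes were 1.03 for Krt8, 1.05 for Krt18, 0.30 for Sqstm1, 0.69 for Hspb1 and 0.35 for Tgm2. Hspb1 then passed the threshold as higher (edgeR FDR 0.00306), so that 3 of the 5 genes did, where 22.2% of all genes were higher in that fit. The libraries left out include the 2 controls highest in Hspb1, replicates 11 and 12, so its fold change goes up by construction. These 2 were also among the 3 controls highest in Krt8 and in Krt18. The fold changes of both keratins thus go up by construction too.

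Genes of other inclusion components and of proteins that work with p62 held calls in both directions. Of 27 tested, 4 were higher and 3 lower, where 19.2% and 19.1% of all genes were, with a median log2 fold change of -0.24 (all genes, -0.10). Genes near 0 in control livers, such as Uchl1, could pass the filter through the MCD libraries alone. With a minimum of 10 counts in all libraries, which leaves out Uchl1 and Hspa1a, 2 were higher and 1 lower. The higher genes were Uchl1, a ubiquitin hydrolase (3.05, SE 0.45, with 0 to 17 counts in each control library), the inducible chaperone genes Hspa1a (1.92, SE 0.22) and Hspa1b (0.68, SE 0.17), and Cryab, the small chaperone alphaB-crystallin (1.74, SE 0.20). Cryab went from 2.96 ± 1.55 to 9.83 ± 2.30 CPM (SD, n = 12 each; edgeR FDR 3.16e-08). Hspa1a and Hspa1b are near-identical copies, so the split of reads between them is uncertain. The 3 lower genes, named because they were few, were the autophagy receptor Nbr1 (-0.65, SE 0.08), the LC3 relative Gabarapl1 (-0.52, SE 0.08) and the ubiquitin ligase Traf6 (-0.51, SE 0.07). None of these 3 was past the threshold with total counts alone (-0.30, -0.14 and -0.16). Over the 9 other scalings, filters and models, Nbr1 was past it in 8, Gabarapl1 in 3 and Traf6 in 2, and over the 24 fits that each left out a library in 24, 12 and 9. Keap1, which p62 binds, had a log2 fold change of -0.37 (FDR 2.28e-06) and Nfe2l2, the factor that Keap1 restrains, -0.32 (FDR 0.00119), both within the fold limit by the edgeR test.

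Genes of keratin linkers and other intermediate filaments were examined in the same way. Of 21 tested, 4 were higher and 2 lower, where 19.2% and 19.1% of all genes were, with a median of -0.06. The share of higher genes was thus near that of all genes. Vim, the filament protein of mesenchymal cells, went from 37.4 ± 16.9 to 213 ± 47.3 CPM (SD, n = 12 each; log2 fold change 2.51, SE 0.20, edgeR FDR 4.7e-11). The plakins Evpl (1.59, SE 0.27) and Ppl (0.99, SE 0.16) and desmin, Des (0.93, SE 0.17), were the other 3 that rose. Dst, another plakin (-0.84, SE 0.13), and pinin, Pnn (-0.71, SE 0.09) were lower and were named because they were few; Pnn was not past the threshold with total counts alone. The desmosomal linker Dsp (-0.41, FDR 0.0151) and plectin, Plec (-0.28, FDR 0.0413), which anchor keratin filaments, were not past it by the edgeR test.

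Relatives of Hspb1 and Tgm2 were the last list. Of 17 listed, 9 were tested, of which 5 were higher and 2 lower, where 19.2% and 19.1% of all genes were. Hspb2, Hspb7 and F13a1 were at or below 18 counts in every control library and passed the filter through MCD livers, so nothing about the list is read from this count. With a minimum of 10 counts in all libraries, which leaves these genes out, 2 were higher and 1 lower. Hspb7, a small heat shock protein best known from muscle, had 1 to 12 counts in each control library and 56 to 139 in each MCD library, with a fitted log2 fold change of 4.23 (SE 0.28) that rests on few control reads. Hspb6 fell from 16.2 ± 6.48 to 7.60 ± 1.19 CPM (SD, n = 12 each; log2 fold change -1.09, SE 0.16, edgeR FDR 2.18e-06). Tgm1, a transglutaminase of squamous epithelium, went from 20.1 ± 6.72 to 35.8 ± 7.31 CPM (SD, n = 12 each; log2 fold change 0.83, SE 0.16, edgeR FDR 6.6e-05). Cryab, counted above, belongs here too. Hspb2 (2.80) and F13a1 (2.08), the A chain of coagulation factor XIII, were also higher, and F13b, its B chain, was lower (-0.55). The call of F13b was held in 4 of the 9 other scalings, filters and models, not with total counts alone (-0.20), and in 17 of 24 fits that each left out a library. These 3 were named after their values had been seen. Hspb8 (-0.27, FDR 0.0382) and Hspb11 (0.17, FDR 0.359) were not past the threshold by the edgeR test.

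**Figure D5:**
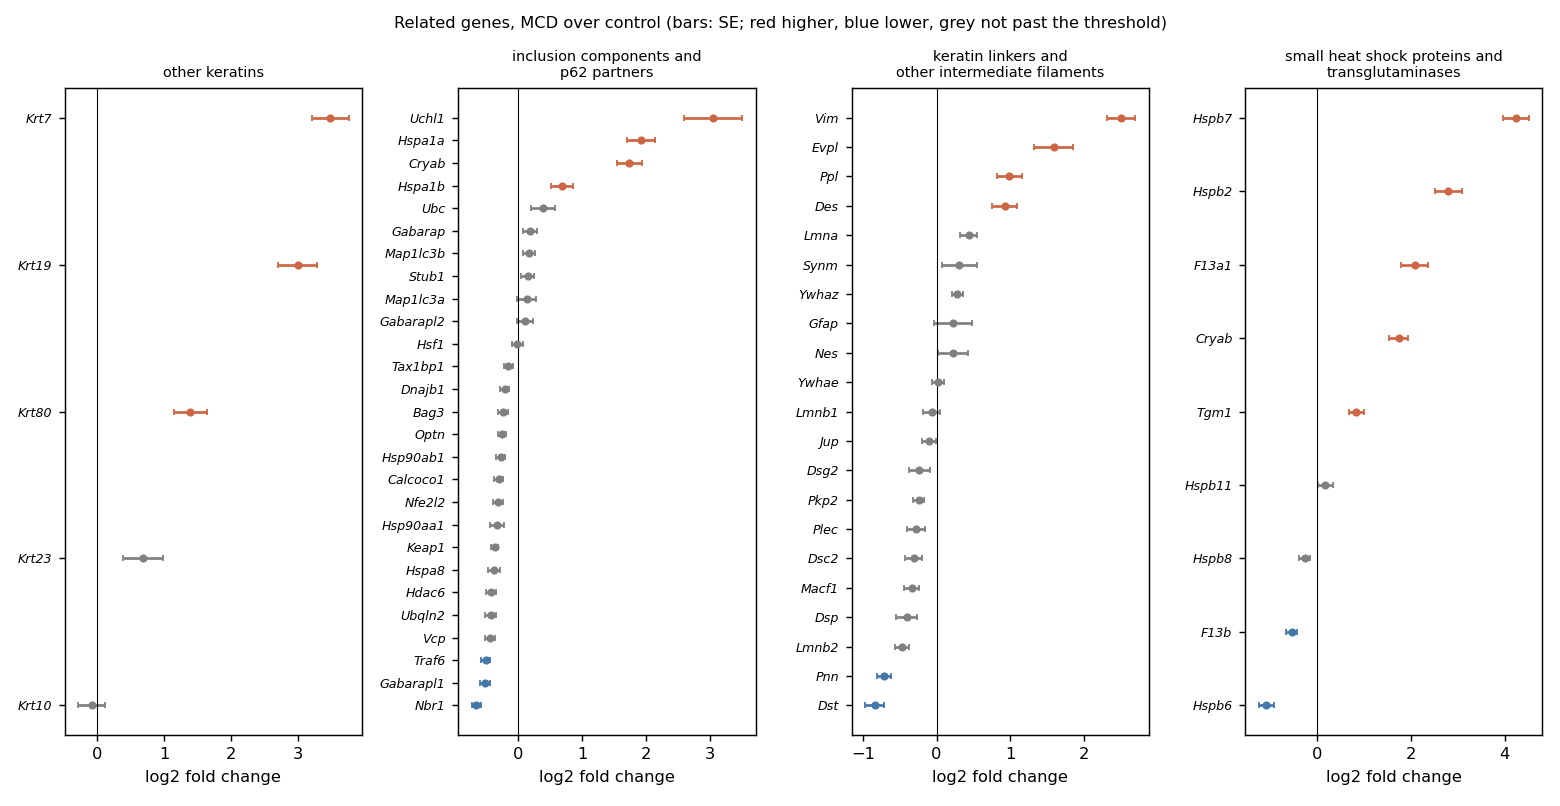
Log2 fold change (MCD over control, horizontal axes, a scale for each panel) of the tested genes in 4 lists, with bars of 1 SE to each side; red genes were past the threshold as higher, blue genes as lower, grey genes were not. Krt17 is left out because control libraries held 0 to 1 counts. Vim (2.51), Uchl1 (3.05) and Hspb7 (4.23) lie farthest to the right in their panels and Dst (-0.84), Nbr1 (-0.65) and Hspb6 (-1.09) farthest to the left.

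Some of these rows could share reads with another gene, since it is not stated whether counting used strand. Exons of Tgm2 overlap Rprd1b on the opposite strand by 370 bases, and Rprd1b, which was lower in MCD livers (-0.52), had 12.6% as many counts as Tgm2. Overlaps of Sqstm1 with Mrnip (580 bases) and of Krt8 with Gm36026 (101 bases) involve rows with 0.458% and 0.0194% as many counts. Of near-identical pseudogenes, Krt8-ps (98.6% identical over 941 bases) had 0.404% as many counts as Krt8, and Hsp25-ps1 and Gm5200, which resemble Hspb1 and Krt18, had 0. Exons of Cryab and Hspb2 overlap each other by 252 bases on opposite strands, and those of Krt7, Krt10, Krt80, Uchl1, Hspa1a, Gabarapl1, Keap1, Des, Dsp, Dst, Plec, Hspb6, Tgm1 and F13a1 overlap other annotated genes, so these values are uncertain.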

How the data were processed

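Whole-liver poly(A) RNA of 24 mice was sequenced, and the authors deposited raw read counts per Ensembl gene, 1 column per library, with no normalization. The submitters' processing notes list bcl2fastq, STAR 2.7.3a and mm10. For its human RNA-seq the study names the exon quantification pipeline with STAR, and PISCES for quantification. The counter, annotation release and use of strand are not given for the mouse libraries in the sources used here. Total counts were 16793207 to 24915175 in control and 16388650 to 24577848 in MCD libraries. No libraries were identical (the lowest dispersion index within a diet was 11.4, where sampling noise gives about unity). Symbols, positions and transcript lengths came from GENCODE mouse release M21 (GRCm38), which named 51745 of 56205 rows. Rows without a symbol held 0.0808% of counts.

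Counts were tested in R 4.3.3 with edgeR 4.0.16 (filterByExpr, TMM, glmQLFit, glmQLFTest) over all 24 libraries with no covariate. The threshold was a Benjamini-Hochberg FDR of 0.01 over 14109 genes and a log2 fold change of 0.5, as in the study. The biological coefficient of variation was 26.8%, and log2 CPM used a prior count of 2. Intervals are at 95%, for ratios by inverting the permutation test. Permutation tests drew 100000 resamples (scipy 1.17.1, numpy 2.4.6), near-identical transcripts were sought with BLAST 2.17.0 (at least 90% identity over 300 bases), and figures were drawn with matplotlib 3.10.9. On simulated counts with 200 changed genes among 14030, edgeR recovered 183 and made 0 false calls, limma-voom (limma 3.58.1) 183 and 0, and DESeq2 1.42.0 192 and 2. The changed genes were set to larger log2 fold changes than those of the 5 genes, so the simulation does not cover effects of their size.

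The 5 genes and the lists were chosen with earlier results of these data known. Beyond the 5, the naming rule took up to 4 genes of each list with the largest log2 fold change, taken from called genes whose mean reached 1 CPM, and the 3 genes most like each of the 5. Keap1, Nfe2l2, Dsp, Plec, Hspb8, Hspb11 and the genes named because they were few or after their values were seen fall outside this rule and were chosen with their values known. Eppk1 and Tf, which were on the lists, were not analysed here. Alternatives were other scalings (relative log expression, upper quartile, total counts alone), no filter, a minimum of 10 counts in all libraries, DESeq2, limma-voom, a block for replicate number, a covariate computed from sex-linked genes, other thresholds, and leaving out each library. Settings with near-identical rows added, without 3 control libraries, and the ratios of Krt8 to Sqstm1, Hspb1 and Tgm2 were added after seeing the data.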

Additional observations from a re-analysis of the deposited data

How the results depend on the processing

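Krt8 and Krt18 were higher and past the threshold under all 9 other scalings, filters and models (log2 fold change 0.82 to 1.17 and 0.80 to 1.18), and were not past a log2 limit of 1 (0.79 and 0.78), which left 0 of the 5 genes. Total counts alone gave 0.58 for Sqstm1, 0.76 for Hspb1 and 0.63 for Tgm2, so that 5 genes passed as higher. An FDR of 0.05 and no fold limit let Sqstm1 (0.21) and Tgm2 (0.29) pass, giving 4, where 26.5% of all genes were higher. Without the 3 control libraries highest in cholangiocyte markers Hspb1 passed (0.69). Upper-quartile factors moved the median of all genes by 0.15. Calls over all genes were 50.2% higher with TMM, 56.5% with relative log expression factors and with DESeq2, 65.6% with upper-quartile factors (1710 lower genes) and 84.3% with total counts alone (4539 higher, 848 lower). A minimum of 10 counts gave 1801 higher genes, an FDR of 0.05 and no fold limit 5221 lower and a log2 limit of 1 686 lower. The cause of these moves was not tested.

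Among inclusion components and p62 partners, 9 were higher with total counts alone and 2 with a minimum of 10 counts. Of these genes 1 was lower with upper-quartile or relative log expression factors, no filter, a minimum of 10 counts, DESeq2 or without the 3 control libraries, 0 with total counts alone or a log2 limit of 1, and 15 with the FDR of 0.05 and no fold limit. For comparison, the share of all genes called higher was 32.2% with total counts alone, 15.4% with a minimum of 10 counts, 13.5% with no filter and 13.2% with a log2 limit of 1. The share called lower was 15.7% with relative log expression factors, 12.1% with upper-quartile factors, 6.01% with total counts alone, 9.62% with no filter, 16.1% with a minimum of 10 counts or DESeq2, 17.2% without the 3 control libraries, 37.0% with an FDR of 0.05 and no fold limit, and 4.86% with a log2 limit of 1. Of keratin linkers and other filaments, 2 were higher with a log2 limit of 1, and 1, 8 and 0 were lower with total counts alone, an FDR of 0.05 and no fold limit and a log2 limit of 1. Of small heat shock proteins and transglutaminases, 2 were higher with a minimum of 10 counts, and 1 was lower with upper-quartile or relative log expression factors, total counts alone, a minimum of 10 counts, DESeq2 or a log2 limit of 1. Of other keratins, 7 were higher with no filter and 1 with a minimum of 10 counts.

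Leaving out each library in turn changed no call of the 5 genes. The log2 fold change was 0.73 to 0.93 for Krt8, 0.73 to 0.98 for Krt18, 0.19 to 0.27 for Sqstm1, 0.28 to 0.53 for Hspb1 and 0.24 to 0.36 for Tgm2. The log2 difference of the Krt8 to Krt18 ratio was -0.014 to 0.045, and it was below 0 without control replicate 2, 7 or 12 (permutation p at least 0.416 throughout). Lower inclusion genes numbered 1 to 3 and lower small heat shock protein and transglutaminase genes 1 to 2. Adding pseudogene rows or 1 count gave a ratio difference of 0.010 and 0.012.

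The diets share replicate numbers, but the labels do not say that a number pairs mice. The deviations of libraries with the same number had an r above 0.1 for 8 of 12 numbers (-0.28 to 0.35), and 2 of 12 controls correlated best with their own number. The covariate computed from sex-linked genes had the same sign in both libraries of every number except 2 and 8. Its part in the likeness of libraries with the same number was not tested. With a replicate block the log2 fold changes were 0.86 for Krt8, 0.85 for Krt18, 0.22 for Sqstm1, 0.45 for Hspb1 and 0.31 for Tgm2, 2 of the 5 genes were past the threshold, and the ratio difference was 0.012 (sign-flip permutation p = 0.813). The block changed no call of the 5 genes, and 2 of 27 inclusion genes were then lower. Of all genes, 19.7% were higher and 17.2% lower in that fit.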
